A study of Drosophila melanogaster with 28 samples.

Results

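The genes described here encode the spliceosome and the splicing factors that guide it in Drosophila melanogaster. They are a list of 40 genes by name, and the question was how RNA polymerase II (Pol II) occupied them in stage 5 embryos, when the zygotic genome is activated, after maternal loss of Domino. All 40 were found and tested among 16513 tested genes. Each gene is represented by its transcript with the most reads on average. SmG was found under the symbol SNRPG. The genes were listed by name, and counts entered only in the choice of the transcript, as a mean over all 4 libraries.

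Chromatin was immunoprecipitated with an antibody to Rpb3, a core subunit of Pol II, and sequenced (ChIP-seq). The DomKD embryos (genotype label t216, stage 5, 2 replicates) came from mothers that expressed a short hairpin RNA against Domino in the germline under a maternal alpha-tubulin Gal4 driver, so that the maternal supply was depleted. The Ctrl embryos (genotype label t180, stage 5, 2 replicates) came from a control line of the same RNAi collection. Domino is the ATPase that exchanges H2A for H2A.Z, known in flies as H2Av. The other 24 of the 28 samples of the series, which include the inputs and the H2A.Z libraries, were not analysed here.

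Splicing removes introns from the transcript while Pol II is still copying the gene. The small nuclear ribonucleoprotein particles (snRNPs) U1 and U2 recognise the 5′ splice site and the branch point, the U4/U6.U5 tri-snRNP then joins, and the Prp19 complex helps to turn the assembly into an active enzyme. Each of these particles except U6 is built on a ring of Sm proteins, whereas U6 carries a ring of LSm proteins. SR proteins bind exons and help to choose the splice sites. These genes are used in nearly every cell, their mRNAs are also loaded into the egg, and ChIP of Pol II measures occupancy of the embryo's own gene copies and not the mRNA.

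Housekeeping genes of the fly often have promoters in which initiation is spread over many bases and which hold the DRE, Ohler1, Ohler6 or Ohler7 motif. The DRE is bound by the factor DREF. The upstream bases of 10 of the 40 genes are shown because they hold the motif whose share differed most between the list and all promoters, or because they belong to the genes at the ends of the response. Each run is the 110 bases just before the annotated start of the chosen transcript, read 5′ to 3′ on the strand of the gene, from the RefSeq Release 6 assembly (dm6). Capitals mark a DRE (TATCGATA) or, in Prp3 only, an Ohler1 match. The first 3 genes hold the DRE and were called lower in DomKD, the next 3 hold it and were not called.
Prp39 (chr3R:28811992-28812101, + strand): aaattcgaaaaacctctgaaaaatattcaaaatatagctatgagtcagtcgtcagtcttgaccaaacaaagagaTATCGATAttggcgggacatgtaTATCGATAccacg
SF2 (chr3R:16341989-16342098, − strand): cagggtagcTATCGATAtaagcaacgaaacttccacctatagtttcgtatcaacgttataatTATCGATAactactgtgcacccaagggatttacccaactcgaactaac
crn (chrX:2249984-2250093, − strand): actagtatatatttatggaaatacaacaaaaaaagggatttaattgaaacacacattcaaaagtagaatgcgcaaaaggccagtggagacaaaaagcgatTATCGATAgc
Sf3b3 (chr3L:833386-833495, − strand): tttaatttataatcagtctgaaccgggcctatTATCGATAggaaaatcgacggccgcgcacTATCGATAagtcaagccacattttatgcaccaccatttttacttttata
B52 (chr3R:13661201-13661310, + strand): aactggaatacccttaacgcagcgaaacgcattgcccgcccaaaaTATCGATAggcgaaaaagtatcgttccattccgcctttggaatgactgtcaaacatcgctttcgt
snRNP-U1-C (chr3R:18983651-18983760, − strand): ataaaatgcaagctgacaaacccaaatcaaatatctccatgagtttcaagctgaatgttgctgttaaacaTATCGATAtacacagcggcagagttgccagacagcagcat
Prp3 and SF1 were called lower and hold no DRE here.
Prp3 (chr3L:19910190-19910299, + strand): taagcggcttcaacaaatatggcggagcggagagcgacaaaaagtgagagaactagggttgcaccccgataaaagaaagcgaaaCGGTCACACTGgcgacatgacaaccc
SF1 (chr3R:17540311-17540420, + strand): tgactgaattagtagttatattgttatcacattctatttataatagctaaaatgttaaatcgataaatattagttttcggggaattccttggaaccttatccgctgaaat
The genes hoip and snRNP-U1-70K were the only ones with a log2 fold change above 0, and they hold neither motif in this stretch.
hoip (chr2L:9699681-9699790, + strand): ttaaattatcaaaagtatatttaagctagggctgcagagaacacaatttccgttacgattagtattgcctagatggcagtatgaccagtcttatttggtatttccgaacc
snRNP-U1-70K (chr2L:6971738-6971847, − strand): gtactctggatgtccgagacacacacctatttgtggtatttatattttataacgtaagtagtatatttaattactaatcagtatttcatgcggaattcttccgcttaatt

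Motifs were counted on both strands from 150 bases before to 50 bases after each annotated start. The DRE was present at 11 of the 40 splicing genes (27.5%), against 12.4% of promoters of genes occupied by Pol II (defined below) and 7.02% of 16494 promoters searched. These 11 genes were SmE, snRNP-U1-C, snf, Prp39, U2A, Sf3b2, Sf3b3, U2af38, crn, SF2 and B52, and 3 of them (Prp39, Sf3b3 and SF2) held the motif at 2 places. Ohler1 was matched at 2 genes (SmF and Prp3), Ohler6 at 2 (x16 and Sf3b5) and Ohler7 at 4 (SF1, SmG, SC35 and Sf3a1). Any of these 4 motifs was present at 19 of 40 (47.5%), against 29.2% of occupied genes and 16.8% of all promoters. No promoter had a DRE and an Ohler1 match that overlapped. The string TATAAA was found at 37.5% of the splicing genes and 31.4% of all promoters, whereas TCAGT, a short form of the initiator, was found at 25% and 41.0%. Both are short strings counted at any place in the window, so a match need not be a working TATA box or initiator. The bars of motif shares set these values side by side.

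**Figure D1:**
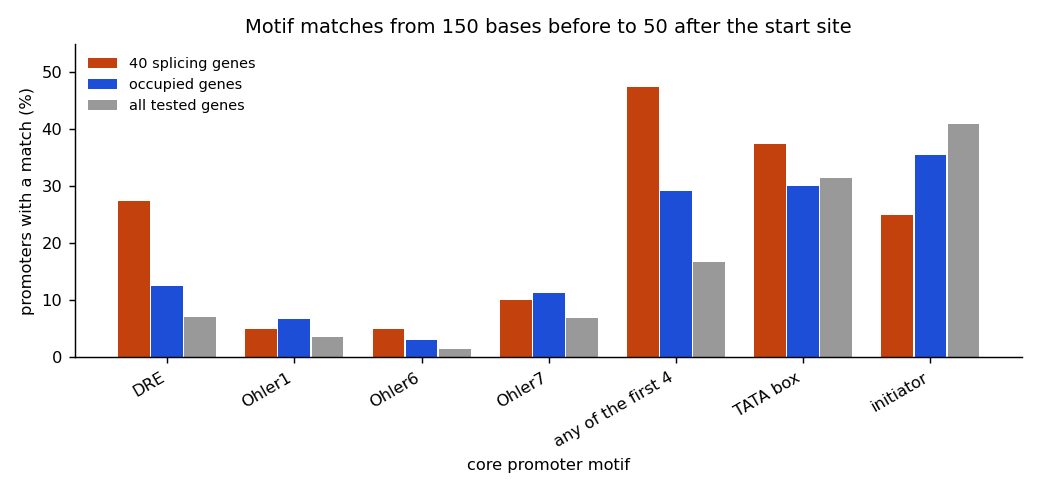
Share of promoters (%, y axis) with at least 1 match to each core promoter motif (x axis) for the 40 splicing genes, occupied genes and all tested genes. The DRE bar of the splicing genes stands at 27.5%, above 12.4% for occupied genes and 7.02% for all tested genes. Their bar labelled initiator, which counts TCAGT at any place in the window, stands below those of occupied and all tested genes.

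Calls of lower Pol II occupancy, as defined below, were set against the DRE. Of the 11 genes with a DRE, 4 were called lower in DomKD (36.4%), against 10 of the 29 without one (34.5%). Among occupied genes the shares called lower were 35.6% with a DRE and 29.9% without, and among all tested genes 27.2% of those with a DRE were called lower, against 12.7% of all. For the splicing genes, the median log2 fold changes were −0.51 with a DRE and −0.52 without. For occupied genes they were −0.46 with a DRE and −0.38 without. The shares of splicing genes come from a chosen list, and none of these shares or medians carries a test.

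Reads were counted over the whole annotated span of each transcript, introns included. CPM are counts per 1e+06 reads of the library total times a scaling factor set over all tested genes (TMM, given further on). Reads in genes summed to 10414864 and 9244926 in the DomKD libraries and to 12022600 and 8326380 in the Ctrl libraries. Read density was taken as CPM per kb of span, on library totals without these factors. Its background level, the most frequent density of long genes, was 4.42 and 7.01 CPM per kb in DomKD replicates 1 and 2. It was 4.64 and 4.22 in Ctrl replicates 1 and 2. The background of DomKD replicate 2 stood above the other 3, and DomKD replicates differed more than Ctrl replicates, with a median absolute log2 difference over all genes of 0.330 for the DomKD pair and 0.135 for the Ctrl pair. The part of this difference in the results below was not tested, and values are therefore given for each library. Genes with at least 2 times the mean background density were called occupied, which held for 5969 of the 16513 genes. As a check of stage, 49 of 53 early zygotic genes were occupied, with a median of 11.7 times background, while 2 of 14 genes of late differentiation were, with a median of 1.02. Pol II over dom itself gave 600 and 371 CPM in DomKD embryos and 617 and 664 CPM in Ctrl embryos. RNAi acts on the mRNA, so this does not check the knockdown.

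Pol II was present on nearly all of the splicing genes. The median density was 4.81 times background, and 38 of 40 genes were occupied. The densest was hoip, which encodes the protein that binds the kink of U4 snRNA, at 29.5 times background. It was followed by snRNP-U1-C, a protein of the U1 particle that touches the 5′ splice site, at 22.8, and by the SR protein gene x16 at 14.03, SmD3 of the Sm ring at 13.4, the SR protein gene B52 at 12.5 and Sf3b3 of the U2 particle at 10.0. SmD3 lies wholly inside Oda and shares its reads, so this density cannot be given to SmD3 alone. Parts of the spans of x16 and Sf3b3 are also shared with other genes. The genes below the limit were snf, which encodes the fly protein shared by the U1 and U2 particles, at 1.52, and Sf3a1 at 1.83. SmD2 at 2.08 and LSm7 at 2.10 lay just above it. Measured against each library's own background, the median over the 40 genes was 4.46 and 2.54 in DomKD replicates 1 and 2, and 6.33 and 7.10 in Ctrl replicates 1 and 2. In DomKD replicate 2 several genes lay below 2 times that background. Among the genes called lower in DomKD, these were SmD2, Prp39, Sf3b5, SF1, Prp31, crn and Srp54. The plot of density over background shows that DomKD replicate 2 was the lowest library at every gene, and that DomKD replicate 1 lay below both Ctrl libraries at 37 of 40.

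**Figure D2:**
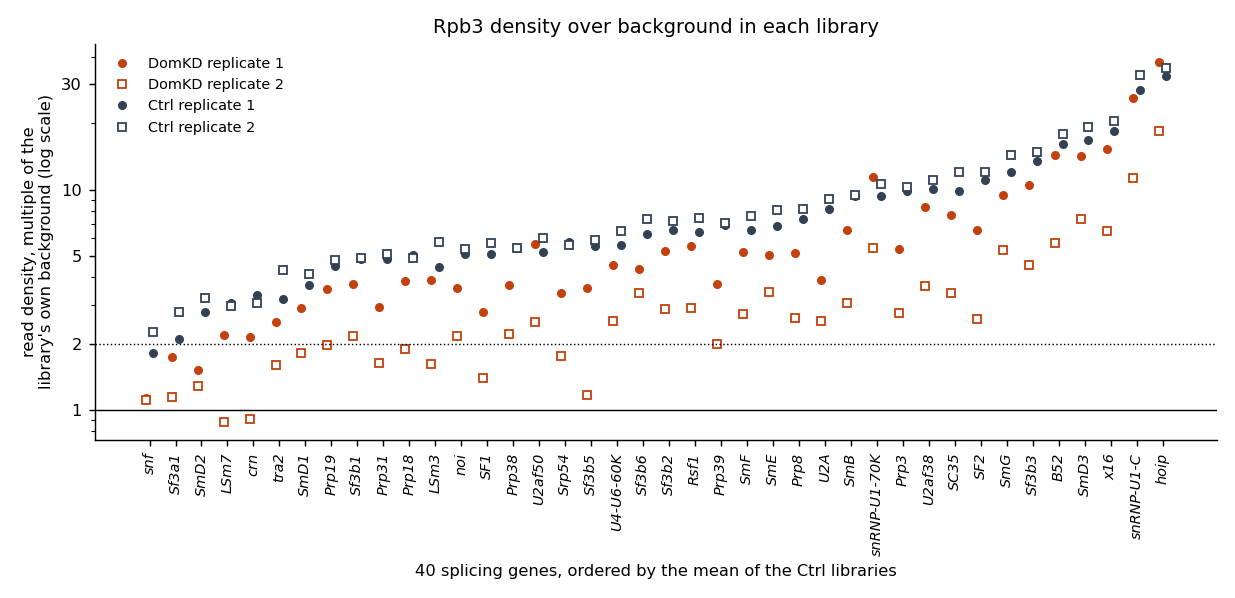
Rpb3 read density as a multiple of each library's own background (y axis, log scale) for the 40 splicing genes, ordered by the Ctrl mean (x axis), with DomKD libraries in orange and Ctrl libraries in dark blue. The solid line is background and the dotted line 2 times background, and in DomKD replicate 2 LSm7 and crn fell below the solid line.

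Among the splicing genes, 14 held less Pol II in DomKD than in Ctrl embryos and 0 held more. The likelihood ratio test of edgeR, adjusted over all tested genes at 0.05, called 14 of 40 lower (35.0%) and 0 higher, against a background over all tested genes of 12.7% lower and 2.46% higher. Without adjustment 28 of the 40 had a p below 0.05, each with a fold change below 0. A p below 0.05 in either direction was found for 5121 of the 16513 tested genes and 2935 of the 5969 occupied genes. The quasi-likelihood test of edgeR and DESeq2 also called 0 of the 40 higher. Fewer nuclei with Pol II on a gene and less Pol II per nucleus cannot be told apart in whole embryos. The median log2 fold change was −0.51, or 0.700-fold, against 0.07 over all tested genes. In 38 of 40 genes the fold change was below 0, against 7475 of the 16513 tested genes and 4680 of the 5969 occupied genes. Counts of genes below 0 by role, given further on, are to be read against these. In 37 of the 40 genes both DomKD libraries lay below both Ctrl libraries, which was true of 31.8% of all tested genes and 62.1% of occupied genes. In the remaining 3 genes (U2af50, hoip and snRNP-U1-70K) the groups overlapped.

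Occupied genes as a whole were the nearer yardstick, since counts over genes at background density are mostly background reads. Occupancy was set on the mean of all 4 libraries. Of the occupied genes 30.6% were called lower and 0.938% higher, with a median log2 fold change of −0.40, and of the 38 occupied splicing genes 14 were (36.8%), with a median of −0.52. The share of splicing genes called lower was therefore close to that of occupied genes. When the libraries were scaled and tested on occupied genes alone, 11 of the 38 splicing genes were called lower (20.0% of the genes in that fit) and 2, snRNP-U1-70K and hoip, higher (21.6% of the genes in that fit), with a median of −0.18.

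The count depended on single libraries. Shares of all genes given here include genes at background density. No shares over occupied genes were taken in these fits. Without DomKD replicate 1 it was 39 lower (31.5% of all genes in that fit), and without DomKD replicate 2 it was 19 lower and 2 higher, again snRNP-U1-70K and hoip (18.5% and 11.3% of all genes). Without Ctrl replicate 1 only 1 gene was called lower (1.56% of all genes) and without Ctrl replicate 2 none was (0.811%), since the spread was then estimated from the DomKD pair. The median log2 fold change stayed between −0.82 and −0.31 in these 4 fits. The 2 DomKD libraries differed in size of change and seldom in direction. Relative to the Ctrl mean, the median was −0.30 in DomKD replicate 1, where 37 genes lay below 0, and −0.81 in DomKD replicate 2, where 40 did. Of the 5969 occupied genes 4010 and 5341 lay below 0 in these libraries, and of the 16513 tested genes 8021 and 7792. In 37 of the 40 genes DomKD replicate 2 was the lower of the pair, against 5478 of 5969 occupied genes and 8154 of 16513 tested genes. The exceptions were SmD2, snf and Sf3b6. Apart from leaving out a library, 7 of the 14 calls held under every alternative in which the gene was fitted (U2A, SF1, SF2, Prp3, Prp39, Srp54 and Prp31), of which only SF1 and Srp54 entered the fit of genes without overlaps, and the other 7 (Sf3b5, crn, SmD2, Prp8, SC35, SmB and Prp38) were lost under at least 1. DESeq2 called 7 of the 40 lower (6.7% of all genes). It gave no adjusted p for Sf3b5 and LSm7, which were counted as not called. Among these alternatives Sf3b5 lost its call only there. The gene that stayed called without Ctrl replicate 1 was U2A.

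**Figure D3:**
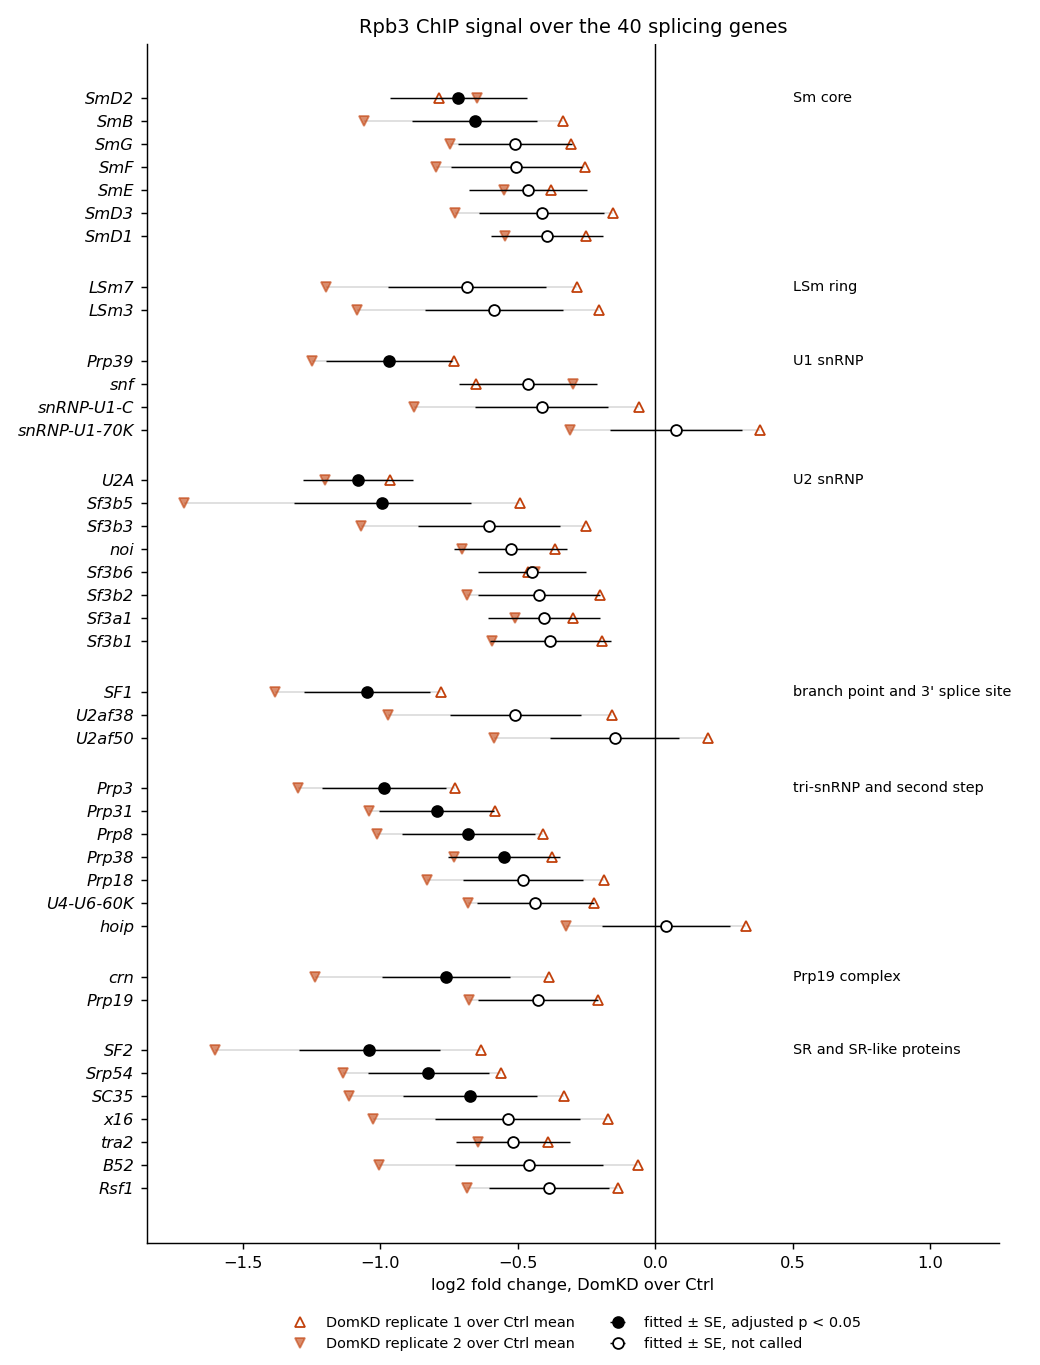
Log2 fold change of Rpb3 ChIP signal, DomKD over Ctrl (x axis), for the 40 splicing genes grouped by role (y axis). Circles are fitted values with the standard error, filled for the 14 genes called lower, and triangles are the single DomKD libraries over the Ctrl mean, with replicate 1 right of 0 only for snRNP-U1-70K, hoip and U2af50.

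Of the 7 genes of the Sm ring, 2 were called lower and all 7 lay below 0 (median −0.51). SmB had 37.2 and 22.6 CPM in DomKD libraries, against 48.7 and 45.5 CPM in Ctrl libraries (log2 fold change −0.66 ± 0.23 SE, edgeR adjusted p = 0.0305). SmD2 had 6.87 and 7.55 CPM in DomKD, against 11.5 and 12.3 in Ctrl (−0.72 ± 0.25, adjusted p = 0.0311). For SmD2 the DomKD libraries lay close together, so the groups were well apart, although the gene stood near background. SmD3, the densest of the ring, had 89.5 and 60.03 CPM in DomKD and 97.0 and 102 in Ctrl (−0.41 ± 0.23, adjusted p = 0.197). SmD3, SmE and SmF lie wholly inside the span of another gene (Oda, CG7102 and CG13175), as LSm3 does inside CG33108, and reads were counted for both, so these values cannot be given to one gene. SmD1, SmE, SmF and SmG had fold changes between −0.51 and −0.39 and did not pass.

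The LSm ring of U6 was covered by LSm3 and LSm7, neither of which passed the test. LSm3 had 14.5 and 7.85 CPM in DomKD, against 15.2 and 18.4 in Ctrl (−0.59 ± 0.25 SE, edgeR adjusted p = 0.0919). In LSm7 the value was −0.69 ± 0.29, and in both genes the lower value came mostly from DomKD replicate 2.

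Of the 4 genes of the U1 particle, Prp39 alone was called lower. Its product is a U1-associated protein in yeast. Prp39 had 96.3 and 67.2 CPM in DomKD, against 165 and 155 in Ctrl (log2 fold change −0.97 ± 0.23 SE, edgeR adjusted p = 0.000869). Both DomKD libraries lay far below both Ctrl libraries. The densest gene of the group, snRNP-U1-C, had 87.8 and 49.8 CPM in DomKD, against 88.3 and 95.0 in Ctrl (−0.41 ± 0.24, adjusted p = 0.223), with DomKD replicate 1 at the level of Ctrl. The values of snRNP-U1-70K, which binds a stem-loop of U1 snRNA, are given here after they were seen. They were 171 and 106 CPM in DomKD and 128 and 134 in Ctrl (0.08 ± 0.24, adjusted p = 0.841), so that 1 DomKD library stood above the Ctrl pair and the other below it.

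All 8 genes of the U2 particle lay below 0 (median −0.49) and 2 were called lower. U2A, a core protein of the particle that pairs with snf, had the lowest fold change of the 40 genes. It had 19.2 and 16.3 CPM in DomKD, against 37.0 and 38.2 in Ctrl (−1.08 ± 0.20 SE, edgeR adjusted p = 1.23e-05). The replicates of each group lay close together and the groups were far apart. Sf3b5, a small subunit of SF3b, the complex that holds the branch point, had 6.55 and 2.78 CPM in DomKD, against 9.29 and 9.19 in Ctrl (−0.99 ± 0.32, adjusted p = 0.0204). This was the gene with the fewest reads, a mean of 70 per library. Sf3b3, the densest, had 346 and 196 CPM in DomKD and 408 and 416 in Ctrl (−0.60 ± 0.26, adjusted p = 0.0930). Its span also holds 9 snoRNA genes and a long noncoding RNA, which share its reads. Sf3a1, noi, Sf3b1, Sf3b2 and Sf3b6 had fold changes between −0.53 and −0.38 and did not pass.

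At the branch point and the 3′ splice site, SF1, the protein that first binds the branch point, was called lower and both U2AF subunits were not. SF1 had 64.8 and 42.6 CPM in DomKD, against 109 and 113 in Ctrl (log2 fold change −1.05 ± 0.23 SE, edgeR adjusted p = 0.000266). U2af38, the small subunit that reads the AG at the intron's end, had 71.3 and 40.6 CPM in DomKD, against 78.9 and 80.2 in Ctrl (−0.51 ± 0.24, adjusted p = 0.128). U2af50, the large subunit that binds the pyrimidine tract, had 65.3 and 38.1 CPM in DomKD and 55.4 and 59.1 in Ctrl (−0.15 ± 0.23, adjusted p = 0.668), values given after they were seen. The DomKD libraries thus lay on either side of Ctrl for U2af50, and both below it for SF1 and U2af38.

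The tri-snRNP and second step genes held the most calls, 4 of 7. Of all 40 genes 35.0% were called lower, and of occupied genes 30.6%. The median of this role was −0.55, against −0.51 for the 40 genes. Prp3, a protein of the U4/U6 particle, had 58.5 and 39.4 CPM in DomKD, against 98.8 and 95.1 in Ctrl (log2 fold change −0.99 ± 0.23 SE, edgeR adjusted p = 0.000545). Prp31, which bridges U4/U6 and U5, had 29.5 and 21.5 CPM in DomKD and 44.7 and 43.7 in Ctrl (−0.80 ± 0.21, adjusted p = 0.00321). Prp8, the large U5 protein at the catalytic core, had 223 and 147 CPM in DomKD and 292 and 301 in Ctrl (−0.68 ± 0.24, adjusted p = 0.0376). In each of these the groups did not overlap, and DomKD replicate 2 was the lower library. Prp38, needed in yeast for activation of the spliceosome, had 21.8 and 16.995 CPM in DomKD and 29.4 and 27.2 in Ctrl (−0.55 ± 0.20, adjusted p = 0.0481), close to the threshold. Prp18, a second step factor in yeast, and U4-U6-60K lay at −0.48 ± 0.22 and −0.44 ± 0.21 and did not pass. For hoip the values were 125.2 and 79.3 CPM in DomKD, against 99.6 and 99.4 in Ctrl (0.04 ± 0.23, adjusted p = 0.918). As in snRNP-U1-70K, 1 DomKD library lay above the Ctrl pair and 1 below it. Without DomKD replicate 1 both of these genes were called lower, at −0.33 for hoip and −0.31 for snRNP-U1-70K, and without DomKD replicate 2 both were called higher, at 0.32 and 0.37.

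Of the Prp19 complex, crn, the fly counterpart of yeast Clf1, was called lower. It had 25.3 and 14.01 CPM in DomKD, against 35.9 and 30.6 in Ctrl (log2 fold change −0.76 ± 0.23 SE, edgeR adjusted p = 0.0137). Prp19, the ubiquitin ligase that names the complex, had 64.6 and 46.6 CPM in DomKD and 75.5 and 73.9 in Ctrl (−0.43 ± 0.22, adjusted p = 0.164), and 56.0% of its span is shared with CG30120 on the other strand.

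All 7 SR and SR-like genes lay below 0 (median −0.54) and 3 were called lower. SF2, the fly counterpart of the splicing activator ASF/SF2, had 98.9 and 50.6 CPM in DomKD, against 154 and 154 in Ctrl (−1.04 ± 0.26 SE, edgeR adjusted p = 0.00161). The Ctrl libraries were nearly equal and both DomKD libraries well below. Srp54, which encodes an SR-like protein, had 35.96 and 24.2 CPM in DomKD and 56.2 and 50.1 in Ctrl (−0.83 ± 0.22, adjusted p = 0.00353), and SC35 had 112 and 65.0 CPM in DomKD and 133 and 149 in Ctrl (−0.67 ± 0.24, adjusted p = 0.0432). The densest, x16, had 445 and 246 CPM in DomKD and 495 and 508 in Ctrl (−0.54 ± 0.26, adjusted p = 0.145), with 33.7% of its span shared with nop5. B52, tra2, the partner of Transformer in sex-specific splicing, and Rsf1 had values between −0.52 and −0.39 and did not pass. The plot of CPM by library shows the 14 called genes beside the 3 whose groups overlapped.

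**Figure D4:**
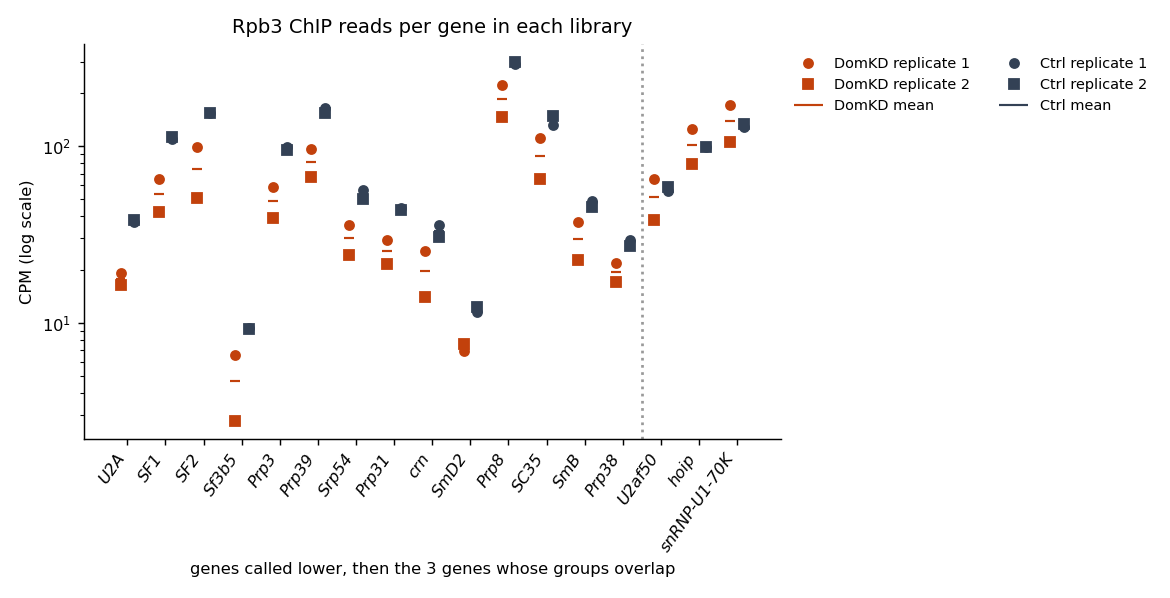
CPM (y axis, log scale) of the 14 splicing genes called lower and, right of the dotted line, of U2af50, hoip and snRNP-U1-70K (x axis), with DomKD in orange left of Ctrl in dark blue and short lines for the means of 2 libraries. For the 14 genes every DomKD point lies below the Ctrl points, while for the last 3 the DomKD points lie on both sides.

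Genes of this list differ in structure and in what they share with their surroundings. In the chosen transcript 11 of the 40 genes had 1 exon and so no intron, and 4 of these 11 were called lower (median −0.51), against 10 of 29 with introns (median −0.52). The 18 genes that overlap no other gene had 6 called lower (median −0.45), and the 22 that overlap another gene had 8 (median −0.56). Of all 40 genes 35.0% were called lower, and of occupied genes 30.6%. Shares by exon number or overlap were not taken over all genes in the main fit. When only genes without overlap were fitted, 8 of the 18 were called lower, against 12.3% of the genes in that fit. That share includes genes at background density, and no share over occupied genes was taken in that fit. Among the called genes, SF2 shares 20.8% of its span with Sulf1, Prp31 shares 12.9% with CG7011 and SmD2 shares 9.65% with CG17919. By density, 7 of 15 genes at 2 to 4 times background were called lower, 7 of 15 at 4 to 8 times and 0 of 8 at 8 times or more, where 3 had an unadjusted p below 0.05 (edgeR). Over all genes the shares in these ranges were 34.1%, 33.4% and 10.1%.

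Transcript isoforms of a gene gave much the same answer, as their spans overlap. The 40 genes had 81 tested transcripts, of which 30, in 17 genes, were called lower by edgeR and 0 higher, against 13.6% lower and 2.78% higher of all 33659 transcripts. In the 19 genes with several transcripts the largest range of log2 fold change within a gene was 0.22, in SF2. The further genes with a called transcript were LSm7, noi and tra2, each close to the threshold.

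Other splicing genes, from 5 lists of 64 genes in all, gave 17 called lower and 0 higher, with a median of −0.43. An unadjusted p below 0.05 (edgeR) was found for 32 of the 64, against 2935 of the 5969 occupied genes. The share called lower was 26.6%, against 12.7% of all tested genes and 30.6% of occupied genes, and 53 of the 64 were occupied. The counts of the single lists below are to be read against these shares. DESeq2 called 10 of the 64. Of 31 other spliceosome proteins 8 were called lower (median −0.42), with Slu7, a second step factor, at −0.93, LSm-4 at −0.81, Bx42, the fly SKIP protein, at −0.80, Phf5a and Spx of SF3b both at −0.70, CG3436 at −0.68, Prp5, a helicase of the U2 step, at −0.67 and CG9667 at −0.60. The gene of this list with the most reads, CG31368, was at 0.04 and not called. Of the 4 exon junction genes 1 was called, tsu, the fly Y14 protein. It had 24.4 and 15.5 CPM in DomKD, against 47.4 and 51.7 in Ctrl (−1.31 ± 0.22 SE, edgeR adjusted p = 1.22e-06), a lower value than any of the 40 genes. Its partner mago lay at −0.56 and did not pass. Of 7 genes of snRNP assembly 3 were called lower, icln at −1.14, Smn, which loads the Sm ring onto snRNA, at −0.77 and the methyltransferase csul at −0.64, while vls lay at 0.07.

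Of 10 hnRNP genes 3 were called lower, glo at −1.07, rump at −0.96 and sqd at −0.80, whereas HnRNP-K, with the most reads, lay at 0.24 and was not called. The 12 splicing regulators and SR kinases had the highest median of the 5 lists, −0.18. In this list Psi at −0.68 and fl(2)d at −0.63 were called lower, and Sxl, the switch gene of sex determination, had 2617 and 1168 CPM in DomKD, against 1652 and 1612 in Ctrl (0.21 ± 0.30 SE, edgeR adjusted p = 0.621). Early zygotic genes, many of them denser than the splicing genes, had a median of 0.32, with 0 of 53 called lower and 1, Doc2, higher (5 at an unadjusted p below 0.05, edgeR). In that list 32 of 53 lay below the Ctrl mean in DomKD replicate 2 and 1 of 53 in DomKD replicate 1. With libraries scaled on the early zygotic genes, the median of all genes moved to −0.16 and that of the 40 splicing genes to −0.79. In that fit 24 of the splicing genes were called lower, against 14.1% of all genes. No share over occupied genes was taken in it.

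**Figure D5:**
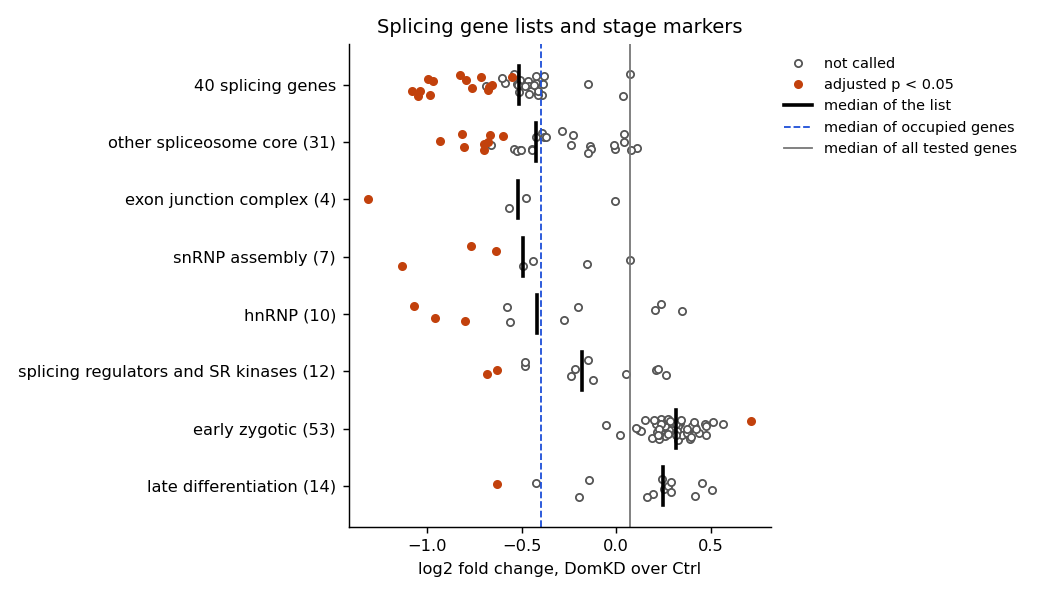
Log2 fold change of Rpb3 ChIP signal, DomKD over Ctrl (x axis), for the 40 splicing genes, 5 other splicing lists, early zygotic and late differentiation genes (y axis, number of genes in brackets). Each point is a gene, filled where the adjusted p was below 0.05, and black bars are medians, −0.51 for the 40 genes, left of the line for occupied genes at −0.40, and 0.32 for early zygotic genes.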

How the data were processed

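Rpb3 ChIP-seq libraries of stage 5 embryos (DomKD and Ctrl, 2 replicates each) were analysed, grouped by sample title. The study's methods state that they are biological replicates. The authors trimmed and mapped the reads to dm6 with snakePipes, removed duplicates, and deposited raw read counts per transcript made with featureCounts. Per the study's methods counting was unstranded and let 1 read count for each transcript that it touched, so overlapping genes share reads. No input was subtracted.

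The table lists 34793 transcripts, and 34516 of their identifiers occur in the Ensembl BDGP6 annotation (dm6 coordinates), 34413 with an identical span. Of the 40 genes, 39 were matched by symbol and SmG by its alias. Spans under 125 nt and those with 10 reads or fewer over the 4 libraries were dropped, and the rest tested with edgeR 4.0.16 (R 4.3.3, likelihood ratio test, TMM factors, no replicate block), with Benjamini-Hochberg adjustment at 0.05 over all tested genes. The test was also run on counts simulated with the same spread for all libraries. Such counts lack the wider spread of the DomKD pair and the higher background of DomKD replicate 2. They therefore do not check the test under these conditions. CPM are counts over TMM-scaled library totals (factors 0.894 and 1.09 for DomKD, 1.02 and 1.01 for Ctrl). Background density was the mode of log2 density over spans above 2000 nt (kernel bandwidth 0.1), and means of densities were set against means of backgrounds. Fold changes are log2 of DomKD over Ctrl with model standard errors. These p-values rest on a spread estimated from 2 libraries per group, pooled over both groups and moderated over all tested genes. They carry neither the wider spread of the DomKD pair on its own nor any spread beyond these libraries. The study scaled its libraries on a list of its own that was not used here.

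The 40 genes, the other lists, the tests and the alternatives were chosen with earlier results of these data known. All 40 genes are described, with values per library for each gene called and for the densest gene of each role. Of the other lists, the genes called and the gene with the most reads are named, where their fold changes bear on the text. Matches of promoter motifs were searched from 150 bases before to 50 after the annotated start in the RefSeq Release 6 genome. The 7 genes on chromosome arm 2R have no sequence shown. Alternatives were other scalings, tests, filters, transcripts and gene sets, a replicate block and each library left out.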

Additional observations from a re-analysis of the deposited data

How the results depend on the processing

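Of the 40 splicing genes, 14 were called lower by edgeR's likelihood ratio test and 0 higher, of 2497 genes called in all. The count of splicing genes called lower was 24 with TMM factors from early zygotic genes, 7 with DESeq2, 7 at an adjusted p under 0.01 and 8 of 18 in a fit restricted to genes free of overlaps, a setting added after seeing the data. It stayed between 10 and 19 under the other settings that keep all 4 libraries, apart from the crossed pairing below. On occupied genes only, 2 were called higher. The count of all genes called was 1155 with DESeq2, 1215 at an adjusted p under 0.01 and 1175 without overlapping genes, where fewer genes were tested. The other splicing genes called, 17 of 64, were 28 with library size only, 28 with early zygotic factors, 10 with DESeq2, 7 at an adjusted p under 0.01 and 9 of 29 without overlaps. Of transcripts, 30 of 81 were called, against 17 with the quasi-likelihood test and 16 with DESeq2. The cause of these differences was not tested.

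Leaving out 1 library each gave 137 to 8825 genes called in all, 0 to 39 splicing genes lower, 0 to 2 higher, 1 to 57 other splicing genes and 1 to 80 transcripts. The highest counts came without DomKD replicate 1 and the lowest without Ctrl replicate 2. A lone library was assumed to vary like the other group. The median log2 fold change of the 40 genes stayed below 0 under every setting, from −0.82 to −0.18, and the median density was 3.39 to 5.92 times background.

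The sign of the fold change turned for 3 genes, none of them called in the main test. It was −0.024 for hoip with library size only, −0.26 for hoip and −0.23 for snRNP-U1-70K with early zygotic factors, and −0.055 for hoip and −0.019 for snRNP-U1-70K without overlapping genes. With 1 library left out it ran from −0.33 to 0.32 for hoip, from −0.31 to 0.37 for snRNP-U1-70K and from −0.59 to 0.18 for U2af50, which was also at 0.18 on occupied genes only.

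The replicate numbers are shared by both groups but nothing pairs the libraries, and the deviations of same-numbered libraries correlated at −0.12. With the replicate block 1858 genes were called, of them 11 splicing genes lower and 0 higher, with a median of −0.53. With the numbers crossed, an alternative chosen after seeing the data, 3412 genes were called, of them 23 splicing genes and 28 of the other splicing genes.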
